A study of Homo sapiens with 30 samples.

Results

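To describe what ERG changed in prostate epithelial cells that already carry active AKT, RNA-seq of RWPE1-mAKT cells was compared with RNA-seq of RWPE1-ERG/mAKT cells. RWPE1 is an immortalized line from normal adult human prostate epithelium. RWPE1-mAKT cells carried an empty pQCXIH retroviral vector and pBabe-Puro with myristoylated AKT (mAKT), and RWPE1-ERG/mAKT cells carried pQCXIH with ERG and the same mAKT vector. Both lines were grown in keratinocyte serum-free medium with EGF and bovine pituitary extract under drug selection, as stable populations, so every value is a mean over a population of transduced cells. The other 2 lines of the same table, RWPE1-Vector (empty vector) and RWPE1-ERG (ERG, no mAKT), are given beside them. Each line had 3 RNA-seq libraries, but the table analysed here gives 1 pooled value per gene and line. No spread between libraries was therefore at hand for any value below, no test was run, the authors' own test columns were not used, and a difference is described by its size. Of the 26255 rows of the table, 12351 had at least 1 FPKM (fragments per transcript length, scaled to the library's mapped fragments) in either line and are the genes described here. A ratio of RWPE1-ERG/mAKT over RWPE1-mAKT could be formed for 12239 of them, and the other 112, all genes of small RNAs, were listed at 0 in 1 of the lines.

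ERG is an ETS-family transcription factor, normally active in endothelial and blood-forming cells. In a large share of prostate cancers a gene fusion places it under an androgen-driven promoter, so that it appears in epithelium. ETS proteins bind DNA at a GGAA core. AKT is the kinase downstream of PI3K that restrains FOXO transcription factors and promotes growth and survival, and the myristoyl group holds it at the membrane, where it is active. ERG-positive prostate tumours often also carry lesions that activate AKT, which is the setting this pair of lines models.

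ERG was at 0.435 FPKM in RWPE1-mAKT cells and 328 FPKM in RWPE1-ERG/mAKT cells, beside 0.264 in RWPE1-Vector and 358 in RWPE1-ERG cells, so the line without mAKT held as high an ERG level. AKT1 was at 58.7 FPKM in RWPE1-Vector, 64.2 in RWPE1-ERG, 156 in RWPE1-mAKT and 281 in RWPE1-ERG/mAKT cells. The AKT1 level was thus 1.80-fold higher in the line with both genes than in the line with mAKT alone. Whether reads of the mAKT vector align to AKT1 is not given in the sources used here, so these values may or may not include the transgene, and the part of this difference in the results below was not tested. Both lines had the mixed basal and luminal keratins of RWPE1 cells. KRT5, a basal keratin, was at 3642 FPKM without and 3519 FPKM with ERG, and TP63, the basal epithelial transcription factor, was at 39.2 and 38.0 FPKM. KRT8 (671 and 921 FPKM) and KRT18 (987 and 958 FPKM), the keratins of simple epithelium, were also abundant. Several defining genes of other cell types were far below 1 FPKM: the endothelial genes CDH5 (0.00350 and 0.210 FPKM), PECAM1 (0.00474 and 0.0253) and VWF (0.00948 and 0.0570), the leukocyte gene PTPRC (0 and 0.00382) and the fibroblast gene COL1A2 (0.0111 and 0.00757). Other members of those lists were measured in both lines, with the endothelial genes EGFL7 (13.2 and 20.5 FPKM), ENG (13.2 and 12.1) and SOX7 (7.63 and 7.69) and the macrophage gene CD68 (27.5 and 24.3) the highest.

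A limited set of genes differed by a large amount between the lines. Of the 12239 genes with a ratio, 324 (2.65%) were at least 2-fold higher in RWPE1-ERG/mAKT cells, ERG included, 115 (0.940%) were at least 2-fold lower, and 11800 lay within 2-fold. The median log2 ratio of all genes was -0.08, and 64.3% of genes had a ratio below 0, so values of lists of genes are read against that median. Of the higher genes 104 were genes of small nucleolar, small nuclear, micro and other small RNAs, which left 220 higher and 103 lower among the other 11921 genes. At 4-fold there were 64 higher and 13 lower genes. A gene below 1 FPKM in 1 of the 2 lines was measured only through the line where it was higher. Such a gene could differ in that direction only. The genes nearest to the 2-fold limit on the higher side were TM4SF1 (19.3 and 38.6 FPKM), just inside, and TMEM255B (2.57 and 5.13 FPKM), just outside. In bulk RNA a change in the share of cells that express a gene and a change in RNA per cell cannot be told apart.

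**Figure D1:**
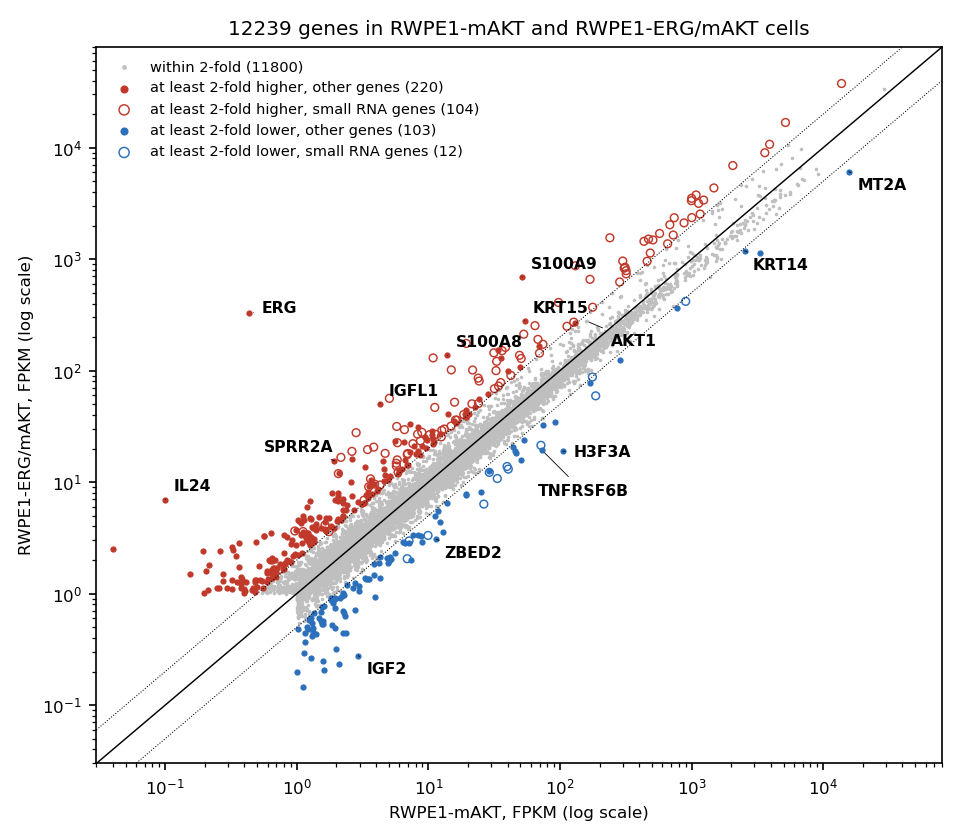
Each point is 1 gene, with its pooled FPKM in RWPE1-mAKT cells on the x axis and in RWPE1-ERG/mAKT cells on the y axis, both on log scales, and red marks the 324 genes at least 2-fold higher, blue the 115 at least 2-fold lower and open circles the small RNA genes among them. S100A9 and S100A8 stand apart on the higher side, and TNFRSF6B, H3F3A and ZBED2 on the lower side.

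Of the 4 genes that mark this comparison, S100A9 and IGFL1 were higher and ZBED2 and TNFRSF6B were lower with ERG. Their promoters are shown here because the text below sets ERG peaks beside them. The sequences are RefSeq promoters on GRCh38.p14, from 250 bases before to 50 bases after the start of transcription, 5′ to 3′ on the strand of the gene, with each GGAA core, on either strand, in capitals (TTCC on the strand shown).
S100A9 (chr1:153357604-153357903, plus strand): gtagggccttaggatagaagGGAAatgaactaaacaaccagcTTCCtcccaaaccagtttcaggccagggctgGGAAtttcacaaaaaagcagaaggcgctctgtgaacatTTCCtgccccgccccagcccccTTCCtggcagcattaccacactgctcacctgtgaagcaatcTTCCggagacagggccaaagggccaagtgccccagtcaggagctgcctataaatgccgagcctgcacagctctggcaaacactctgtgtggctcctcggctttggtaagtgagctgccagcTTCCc
IGFL1 (chr19:46229492-46229791, plus strand): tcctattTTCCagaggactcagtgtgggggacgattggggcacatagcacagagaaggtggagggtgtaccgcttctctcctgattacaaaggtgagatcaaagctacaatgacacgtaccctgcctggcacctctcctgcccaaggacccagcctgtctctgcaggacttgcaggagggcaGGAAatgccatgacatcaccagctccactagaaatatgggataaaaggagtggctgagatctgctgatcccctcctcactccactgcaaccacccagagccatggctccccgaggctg
ZBED2 (chr3:111595297-111595596, minus strand): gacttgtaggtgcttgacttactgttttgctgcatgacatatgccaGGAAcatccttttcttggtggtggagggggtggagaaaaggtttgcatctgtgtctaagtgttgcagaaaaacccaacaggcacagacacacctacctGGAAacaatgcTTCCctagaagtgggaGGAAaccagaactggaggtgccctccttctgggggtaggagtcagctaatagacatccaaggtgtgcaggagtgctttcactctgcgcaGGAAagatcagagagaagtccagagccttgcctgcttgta
TNFRSF6B (chr20:63696402-63696701, plus strand): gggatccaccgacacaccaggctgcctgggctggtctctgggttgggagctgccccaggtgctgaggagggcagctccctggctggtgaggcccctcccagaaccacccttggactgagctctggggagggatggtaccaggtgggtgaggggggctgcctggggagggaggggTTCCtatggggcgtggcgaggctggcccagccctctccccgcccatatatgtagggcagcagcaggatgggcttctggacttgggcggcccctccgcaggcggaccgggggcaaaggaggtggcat
The S100A9 promoter held 7 GGAA cores, that of ZBED2 5, that of IGFL1 2 and that of TNFRSF6B 1, where the median of all 35116 promoters of this length was 3.00. At least 1 core was present in 95.5% of all promoters, so its presence sets none of these apart. The longer GGAAGT, on either strand, was in 22.8% of all promoters and in none of these 4. Both motifs overlap, since GGAAGT holds GGAA.

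Among genes with at least 5 FPKM in the higher and 0.5 FPKM in the lower line, S100A9 had the largest ratio, and S100A8 was among the 10 largest. Their products form calprotectin, a calcium- and zinc-binding complex found in neutrophils and in stressed or differentiating squamous epithelium. S100A9 was at 33.0 FPKM in RWPE1-Vector, 38.4 in RWPE1-ERG, 51.6 in RWPE1-mAKT and 691 in RWPE1-ERG/mAKT cells, 13.4-fold higher with ERG in mAKT cells. S100A8 was at 3.64, 1.60, 13.9 and 137 FPKM in the same order, 9.83-fold higher. Both genes were thus high only in the line with both transgenes, and ERG without mAKT left S100A9 within 2-fold of its level and had S100A8 2.28-fold lower. S100A7, a related squamous gene, was listed at 0 in both lines without mAKT and at 0.192 and 2.43 FPKM in RWPE1-mAKT and RWPE1-ERG/mAKT cells. S100P was the other S100 gene past 2-fold, at 2.23 and 7.02 FPKM, so that 28.6% of the S100 genes were higher, against 2.65% of all genes. S100A7 was measured only through its level in RWPE1-ERG/mAKT cells, so the floor fixed its call. The other 10 of the 14 S100 genes measured had log2 ratios from -0.64 (S100A13, 162 and 104 FPKM) to -0.02 (S100A3), and the list's median was -0.14. S100A2, the most abundant, was at 6420.2 and 4630.3 FPKM.

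IGFL1 behaved differently across the 4 lines. It encodes a secreted protein of the IGF-like family, a ligand of the receptor IGFLR1 on T cells. IGFL1 was at 1.97 FPKM in RWPE1-Vector, 44.5 in RWPE1-ERG, 4.27 in RWPE1-mAKT and 50.4 in RWPE1-ERG/mAKT cells. It was high in both lines with ERG and low in both without, 11.8-fold higher in mAKT cells and 22.5-fold higher without mAKT. IGFLR1 stayed near its level (2.34 and 2.16 FPKM). Of the 10 measured IGFL, IGF-binding and IGF receptor genes, 2 were at least 2-fold higher (20.0%, against 2.65% of all genes), IGFL1 included. In the same list 1 was lower, where 0.940% of all genes were, and the median log2 ratio was -0.09. IGFBP3, which binds IGFs outside the cell, was at 3.31 and 13.7 FPKM without and with ERG in mAKT cells, and at 4.44 and 41.1 FPKM in RWPE1-Vector and RWPE1-ERG cells. IGF2, the growth factor itself, was at 2.93 and 0.277 FPKM, a low level in all lines. It was measured only through its level in RWPE1-mAKT cells, so the floor fixed its call.

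ZBED2 and TNFRSF6B were lower by similar ratios but followed different patterns. ZBED2, a zinc-finger transcription factor of keratinocytes and activated T cells, was at 19.5 FPKM in RWPE1-Vector, 5.67 in RWPE1-ERG, 11.5 in RWPE1-mAKT and 3.07 in RWPE1-ERG/mAKT cells. It was 3.74-fold lower with ERG in mAKT cells and 3.43-fold lower without mAKT. TNFRSF6B encodes decoy receptor 3, a soluble receptor that captures FAS ligand and related death ligands. It was at 61.5, 112, 72.6 and 19.5 FPKM, which is 3.73-fold lower with ERG in mAKT cells and 1.82-fold higher with ERG without mAKT. TNFRSF6B overlaps the RTEL1 locus, and without strand information reads of the 2 genes cannot be fully separated. RTEL1 itself was at 17.4 and 13.9 FPKM in RWPE1-mAKT and RWPE1-ERG/mAKT cells, a smaller difference than that of TNFRSF6B.

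**Figure D2:**
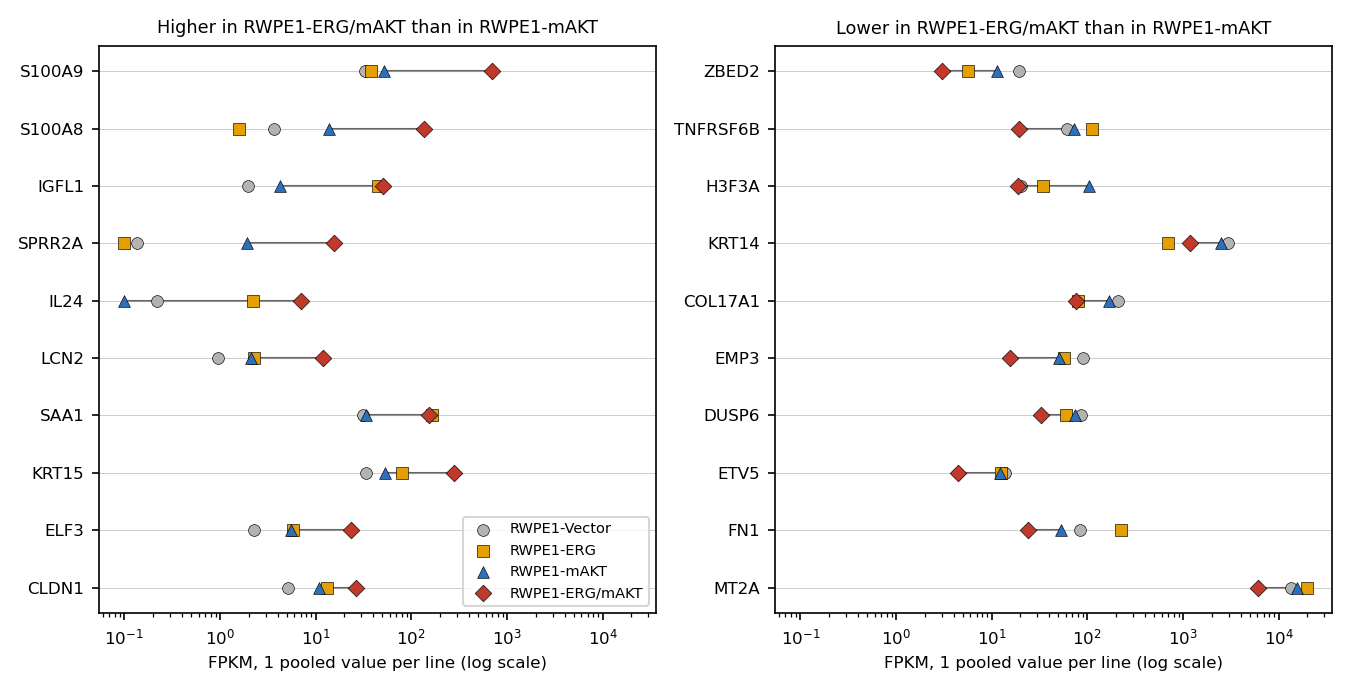
Each row is 1 gene and each symbol its pooled FPKM in 1 of the 4 lines, on a log x axis, with a line joining RWPE1-mAKT to RWPE1-ERG/mAKT. On the left, S100A9, S100A8 and SPRR2A are high only in RWPE1-ERG/mAKT cells while IGFL1 and SAA1 are as high in RWPE1-ERG cells, and on the right TNFRSF6B, FN1 and MT2A are lowest in RWPE1-ERG/mAKT and highest in RWPE1-ERG cells.

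By the rule used to name genes (at least 5 FPKM in the higher line and 0.5 FPKM in the lower), the 10 largest rises were S100A9, SNORD116-16, IGFL1, SNORA75, SNORA28, S100A8, MIR4449, SPRR2A, SNORA72 and SCARNA8. Since 6 of these are small RNA genes, the largest rises among other genes were also taken, a choice made after the values were seen. These were, after SPRR2A, HIST1H4F (6.09-fold higher), LCN2, TFPI, KRT15, SAA2, NNMT, SAA1, HCLS1, ELF3, IGFBP3 and CARD16. TFPI, the inhibitor of the tissue factor pathway of coagulation, was 5.31-fold higher (1.27 and 6.75 FPKM). NNMT, which methylates nicotinamide, was 4.56-fold higher (7.31 and 33.3 FPKM). HCLS1, an actin regulator of blood cells, was at 1.86 and 8.02 FPKM, and CARD16, a regulator of caspase-1, was at 2.56 and 10.1 FPKM. All 4 were also at least 2-fold higher in RWPE1-ERG than in RWPE1-Vector cells.

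Genes of the squamous program differed unevenly. The cornified envelope is the cross-linked protein shell of terminally differentiated keratinocytes, built from small proline-rich (SPRR) proteins and involucrin. Of the 24 measured genes of the cornified envelope and stress keratin list, 5 were at least 2-fold higher (20.8%, against 2.65% of all genes). Another 2 were lower, where 0.940% of all genes were. The median log2 ratio was 0.59, against -0.08 for all genes. SPRR2A was at 1.93 and 15.6 FPKM (8.06-fold higher), SPRR2E at 1.11 and 3.55, SPRR2D at 2.40 and 6.30, IVL (involucrin) at 1.64 and 4.43 and PI3 (the protease inhibitor elafin) at 49.6 and 107 FPKM. SPRR2 genes are close copies of each other, so reads may be shared between them. SPRR2A was at 0.137 FPKM in RWPE1-Vector and 0.0997 in RWPE1-ERG cells. KRTDAP (1.31 and 0.541 FPKM) and SBSN (1.19 and 0.497 FPKM), genes of suprabasal epidermis, were the 2 that were lower. Both were measured only through their levels in RWPE1-mAKT cells. The stress keratin KRT16 was at 50.5 and 87.4 FPKM, within 2-fold, and had been 28.1 and 7.25 FPKM in RWPE1-Vector and RWPE1-ERG cells. The 6 measured epidermal kallikreins, proteases that shed the outer epidermis, went both ways. KLK7 was higher (0.675 and 1.45 FPKM), 16.7% of the list against 2.65% of all genes. It was measured only through its level in RWPE1-ERG/mAKT cells, so it could differ in that direction only. KLK5 (3.87 and 1.46) and KLK9 (2.26 and 1.00) were lower, where 0.940% of all genes were, and the median log2 ratio was 0.42.

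Basal genes diverged from each other. Of the 21 basal epithelial genes, 4 were at least 2-fold lower, where 0.940% of all genes were. Another 1 was higher (4.76%, against 2.65% of all genes), and the median log2 ratio was -0.24. KRT14, the partner of KRT5 in basal filaments, was at 2527 and 1185 FPKM (2.13-fold lower) while KRT5 and TP63, given above, were nearly level. Genes of the hemidesmosome, which anchors basal cells to the basement membrane, differed among themselves: COL17A1 was at 169.8 and 76.8 FPKM (2.21-fold lower), ITGB4 at 339 and 186 FPKM and ITGA6 at 116 and 67.2 FPKM, both within 2-fold, and DST was level at 33.9 and 33.3 FPKM. LAMB3, a laminin chain of the basement membrane, was at 94.2 and 99.1 FPKM. NRG1, a ligand of ERBB receptors, was at 8.73 and 3.25 FPKM. KRT15, a keratin of basal stem-like cells, went the other way, at 53.8 and 279.7 FPKM (5.20-fold higher). In the lines without mAKT, levels without and with ERG were 3126 and 1169.8 FPKM for KRT5, 2936 and 699.5 FPKM for KRT14 and 36.3 and 21.3 FPKM for TP63.

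None of the 15 measured prostate luminal genes passed 2-fold in either direction, and their median log2 ratio was 0.06. A ratio below 0 was found for 40.0% of the list, against 64.3% of all genes. CD24 had the largest ratio of the list, at 32.6 and 63.0 FPKM (1.93-fold higher). The stress-responsive gene NDRG1 was at 119 and 216 FPKM. KRT19, a keratin of simple epithelium, was at 405 and 654 FPKM, FOXA1 at 3.28 and 3.19 FPKM and AGR2, a secretory protein, at 7.27 and 4.98 FPKM. A further 12 genes of the list were below 1 FPKM in both lines.

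Epithelial junction and epithelial transcription factor genes had 5 higher (15.6%, against 2.65% of all genes) and 0 lower members of 32, with a median log2 ratio of 0.12. ELF3, an ETS factor of epithelial differentiation, was at 5.57 and 23.4 FPKM (4.21-fold higher), and GRHL3, a factor of epidermal barrier formation, at 1.29 and 4.70 FPKM. The tight junction genes CLDN1 (10.7 and 26.3 FPKM) and CGN (1.26 and 2.96 FPKM) and the factor OVOL1 (0.898 and 1.92 FPKM) were the others. OVOL1 was measured only through its level in RWPE1-ERG/mAKT cells. CDH1, encoding E-cadherin, stayed at 43.0 and 44.9 FPKM. Of the 21 EMT and mesenchymal genes only FN1 passed 2-fold, lower at 53.4 and 23.8 FPKM, where 0.940% of all genes were lower. The list's median was -0.11. VIM was at 366 and 288 FPKM, SNAI2 at 54.9 and 35.0 FPKM and AXL at 29.3 and 17.8 FPKM. Another 9 of the 21 had a log2 ratio above 0, among them FSTL1 (0.69). Ratios below 0 made up 57.1% of the list, against 64.3% of all genes. FN1, the matrix protein fibronectin, went the opposite way without mAKT, from 83.7 to 228 FPKM.

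Interferon-stimulated genes were the list with the most higher members. Interferons induce these genes through receptors at the cell surface, and many of their products block viral replication. Of 41 measured members, 12 were at least 2-fold higher (29.3% against 2.65% of all genes), 0 were lower, and 38 had a log2 ratio above 0. The median was 0.59. IFI27 was at 8.34 and 30.9 FPKM, OAS1, which makes the second messenger of RNase L, at 2.05 and 6.79 FPKM and MX1, a GTPase that blocks viruses, at 3.56 and 9.32 FPKM. RSAD2 (0.324 and 2.60 FPKM) and CMPK2 (0.205 and 1.60 FPKM) had larger ratios at low levels. Both were below 0.5 FPKM in RWPE1-mAKT cells, so the 1 FPKM floor fixed their place among the 12 higher genes. The abundant members moved less, with ISG15 at 58.1 and 98.9 FPKM and IFITM3 at 451 and 615 FPKM. The list's median for RWPE1-ERG over RWPE1-Vector cells was 0.88. MHC class I antigen presentation genes, also interferon-responsive, had 0 of 19 members past 2-fold and a median of 0.24, with HLA-B at 57.4 and 105 FPKM.

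Among inflammatory genes a few members were far higher and most lay within 2-fold, with ratios mostly above 0. Of 20 measured NF-kB target and TNF receptor genes, 5 were at least 2-fold higher (25.0%, against 2.65% of all genes). Another 1 was lower, where 0.940% of all genes were. The median log2 ratio was 0.48, and 20.0% of the list had a ratio below 0, against 64.3% of all genes. The acute-phase genes SAA1 (33.8 and 154 FPKM) and SAA2 (1.19 and 5.95 FPKM), which are close copies of each other, were 4.56-fold and 4.99-fold higher. LCN2, encoding lipocalin-2, which withholds iron, was 5.72-fold higher from 2.09 FPKM, the complement gene C3 at 1.01 and 4.55 FPKM and the adhesion receptor ICAM1 at 3.68 and 10.4 FPKM. The NF-kB genes themselves were within 2-fold (NFKB1 17.7 and 15.5 FPKM, RELB 5.94 and 8.70 FPKM), and TNFRSF6B was the lower member. Of 17 measured cytokines and chemokines, 4 were higher (23.5%, against 2.65% of all genes) and 0 lower, with a median of 0.16. A log2 ratio above 0 was found for 13 of them. IL24, a cytokine of the IL-10 family, had the largest ratio of these at 0.0996 and 6.97 FPKM, a fold that rests on a value near 0. IL1RN, the antagonist of the IL-1 receptor, was at 6.02 and 12.5 FPKM, IL32 at 1.77 and 4.82 FPKM and CXCL11 at 0.154 and 1.49 FPKM, while IL1A (28.5 and 28.9 FPKM) and IL1B (42.0 and 44.6 FPKM) stayed level. IL24 and CXCL11 were below 0.5 FPKM in RWPE1-mAKT cells, so the 1 FPKM floor fixed their place among the 4 higher genes.

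Genes that report ERK signalling mostly had ratios below 0, and a few passed 2-fold. ERK, the kinase at the end of the RAS pathway, induces DUSP phosphatases, SPRY and SPRED proteins and the ETS factors ETV4 and ETV5, which in turn dampen or carry the signal. Of 23 measured ERK feedback and immediate early genes, 3 were at least 2-fold lower (0.940% of all genes were), 0 were higher, and 20 had a log2 ratio below 0 (87.0%, against 64.3% of all genes). The median was -0.54, the lowest of all lists with at least 5 measured genes. ETV5 was at 12.3 and 4.42 FPKM (2.77-fold lower), DUSP6, a phosphatase for ERK, at 74.8 and 32.5 FPKM (2.30-fold lower) and ETV1 at 1.27 and 0.600 FPKM. ETV4 (log2 ratio -0.92), SPRY4 (10.1 and 5.18 FPKM), DUSP4 (17.7 and 9.40 FPKM) and the EGFR ligands EREG (11.4 and 6.12 FPKM) and AREG (8.66 and 4.84 FPKM) came within 2-fold. Without mAKT, ERG left ETV5 at 13.6 and 12.5 FPKM and DUSP6 at 86.2 and 59.6 FPKM. In the ETS family 20 genes were measured. ERG itself, ELF3 and ETV7 (0.515 and 1.79 FPKM) were higher (15.0%, against 2.65% of all genes). ERG and ETV7 were measured only through their levels in RWPE1-ERG/mAKT cells, and ETV1 only through its level in RWPE1-mAKT cells. ETV5 and ETV1 were lower, where 0.940% of all genes were, and the median was -0.11. The closest relative of ERG, FLI1, was at 2.16 and 1.60 FPKM. Of the 11 AP-1 genes, partners of ETS factors on DNA, 0 passed 2-fold and the median was near 0, with ATF3 at 10.3 and 19.5 FPKM and FOSL1 at 100.4 and 78.1 FPKM.

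**Figure D3:**
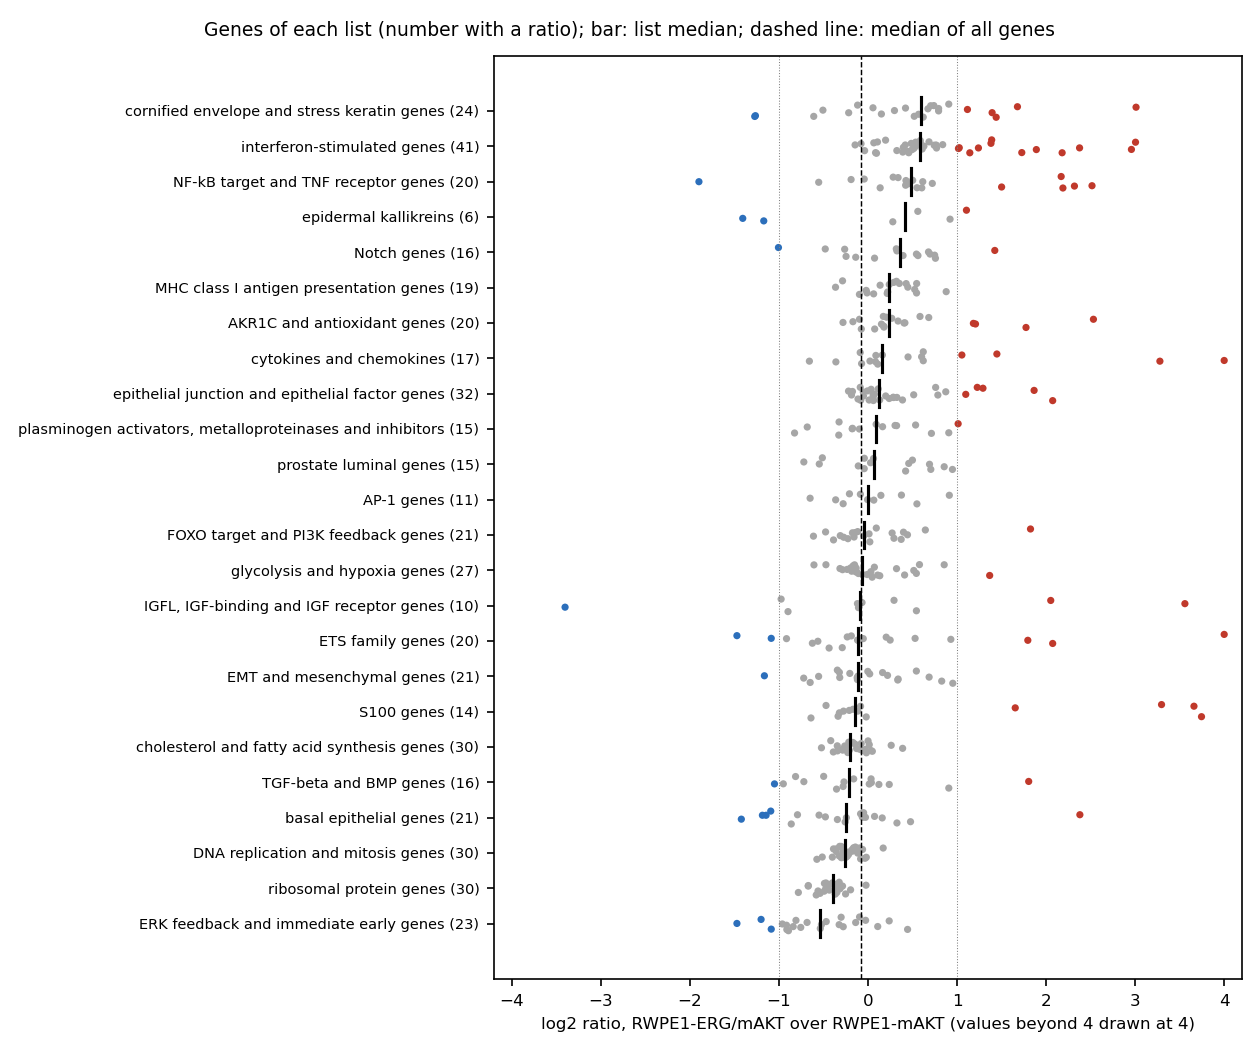
Each point is the log2 ratio of 1 gene, RWPE1-ERG/mAKT over RWPE1-mAKT, in the 24 lists with at least 5 measured genes, and each black bar is the median of the list. Cornified envelope and interferon-stimulated genes have the highest medians (0.59 each), ERK feedback genes the lowest (-0.54), and ribosomal protein genes all lie below 0.

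Lists tied to AKT itself moved little. The 21 measured FOXO target and PI3K feedback genes had a median of -0.05. Among them 1 was at least 2-fold higher (4.76%, against 2.65% of all genes) and 0 were lower. That gene was TNFSF10, encoding the death ligand TRAIL, at 1.96 and 6.96 FPKM, while IRS1 was at 8.39 and 5.48 FPKM and IRS2 at 8.56 and 6.15 FPKM. Among 27 glycolysis and hypoxia genes EGLN3 was higher (0.623 and 1.61 FPKM), 3.70% of the list against 2.65% of all genes. EGLN3 was measured only through its level in RWPE1-ERG/mAKT cells. The list's median was -0.06. None of 30 cholesterol and fatty acid synthesis genes passed 2-fold, with SREBF1 at 64.7 and 84.7 FPKM and a median of -0.21.

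Signalling and protease lists had single members past 2-fold in a direction. Higher members made up 6.25% of TGF-beta and BMP genes, 6.25% of Notch genes and 6.67% of the protease list, against 2.65% of all genes. Of all genes 0.940% were lower. GDF15, a stress-induced member of the TGF-beta family, was at 6.56 and 22.9 FPKM, and SMAD7, the inhibitory SMAD, at 1.81 and 0.875 FPKM, 1 higher and 1 lower of 16 TGF-beta and BMP genes (median -0.22). Of 16 Notch genes, DLL1 was higher (0.588 and 1.58 FPKM) and LFNG lower (2.40 and 1.20 FPKM), with a median of 0.36. NOTCH1 was at 22.3 and 35.7 FPKM and its target HES1 at 16.8 and 28.2 FPKM. DLL1 was measured only through its level in RWPE1-ERG/mAKT cells, and SMAD7 only through its level in RWPE1-mAKT cells. Of 15 plasminogen activators, metalloproteinases and inhibitors, SERPINB2, an inhibitor of urokinase, was higher (3.23 and 6.52 FPKM), the median was 0.09, and PLAU, encoding urokinase, was at 30.4 and 26.9 FPKM.

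AKR1C and antioxidant genes had 4 of 20 members higher (20.0%, against 2.65% of all genes) and 0 lower, with a median of 0.24. ALDH3A1, an aldehyde dehydrogenase, was at 4.48 and 15.3 FPKM, AKR1B10 at 0.565 and 3.27 FPKM, AKR1C2, which reduces dihydrotestosterone, at 3.33 and 7.68 FPKM and HMOX1, encoding heme oxygenase, at 1.63 and 3.70 FPKM. AKR1B10 was measured only through its level in RWPE1-ERG/mAKT cells. NQO1, a standard NRF2 target, was level at 77.0 and 72.1 FPKM. AKR1C1, AKR1C2 and AKR1C3 are close copies, so reads may be shared between them. In the lines without mAKT, ALDH3A1 went from 3.36 to 0.864 FPKM and AKR1C2 from 3.13 to 0.772 FPKM with ERG, the opposite direction.

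Growth genes stayed within 2-fold, with ratios mostly below 0. Of 30 DNA replication and mitosis genes, 0 passed 2-fold, 29 had a ratio below 0 (96.7%, against 64.3% of all genes) and the median log2 ratio was -0.25. AURKB, a mitotic kinase, was at 117 and 78.7 FPKM and MKI67 at 34.2 and 23.9 FPKM. All 30 ribosomal protein genes had a ratio below 0, from -0.78 (RPL27, 4374 and 2543 FPKM) to -0.02 (RPLP1), with a median of -0.40. Their summed level was 88239 FPKM in RWPE1-mAKT, 66532 in RWPE1-ERG/mAKT, 75447 in RWPE1-Vector and 85887 in RWPE1-ERG cells. FPKM are shares of the sequenced RNA, so a lower value of an abundant group cannot be told apart from more of other RNA. Among the lists of other cell types, endothelial genes had 4 of 20 members at 1 FPKM or above, with a median log2 ratio of -0.06. The leukocyte list had 2 of 8 (CD68, given above, and CD14, 0.628 and 1.09 FPKM), the fibroblast list 1 of 9 (COL1A1, 1.93 and 1.78 FPKM) and the neuroendocrine list 1 of 8 (ENO2, 3.24 and 4.71 FPKM).

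The largest falls by that rule were H3F3A, MIR6807, ZBED2, TNFRSF6B, STAMBPL1, C8orf88, RNVU1-20, SNORD4B, EMP3 and SNORD75. H3F3A, encoding the replacement histone H3.3, was at 20.5 FPKM in RWPE1-Vector, 34.3 in RWPE1-ERG, 105 in RWPE1-mAKT and 18.9 in RWPE1-ERG/mAKT cells, so RWPE1-mAKT cells alone were high. It has many processed copies in the genome, and its value is uncertain for that reason. H3F3B, which encodes the same protein, was at 209 and 175 FPKM. STAMBPL1, a deubiquitinase, was at 12.9 and 3.56 FPKM, EMP3, a membrane protein, at 50.8 and 15.7 FPKM and C8orf88 at 7.33 and 2.02 FPKM. With small RNA genes left out, RAMP1 (25.1 and 8.07 FPKM), a partner of the calcitonin-like receptor, XDH (8.91 and 2.91 FPKM), the enzyme that makes uric acid, SNHG25 (3331 and 1129 FPKM), ETV5, NRG1, DKK1 (91.5 and 34.3 FPKM), an inhibitor of WNT signalling, MT2A, HMGN5 and TOX2 were next. Among genes at least 2-fold changed, MT2A, a metal-binding metallothionein, had the largest loss in FPKM, from 15674 to 6088. KRT14, SNHG25, MIR3652 and the chromatin protein gene HMGA1 (776 and 367 FPKM) were the other 4. The 5 largest gains in FPKM in the same set were all of small nucleolar RNA genes, led by SNORD33 (13794 and 37657 FPKM).

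Both small nucleolar RNA genes and clustered histone genes stood apart, as groups singled out after the values were seen. Small nucleolar RNAs guide chemical modification of ribosomal and spliceosomal RNA and are processed from introns of host genes. Of 231 with a ratio, 82 (35.5%, against 2.65% of all genes) were at least 2-fold higher and 4 (1.73%, against 0.940% of all genes) lower. Their median log2 ratio was 0.73. Their median for RWPE1-ERG over RWPE1-Vector cells was 1.25. SNORD116 genes, repeated copies in an imprinted cluster, had 8 of 10 higher (80.0%, against 2.65% of all genes). Replication-dependent histone genes make transcripts that end in a stem-loop in place of a poly(A) tail. Of 58 clustered histone genes, 19 (32.8%, against 2.65% of all genes) were at least 2-fold higher and 0 lower, with a median of 0.88. Of the same 58, 51 were at least 2-fold higher in RWPE1-ERG than in RWPE1-Vector cells, where 4.78% of all genes were. Both groups are poorly captured by selection of poly(A) RNA, FPKM of very short genes are unstable, and the part of library preparation in these differences was not tested. Small RNA genes also made up the 112 genes listed at 0 in 1 line, 56 in each.

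The effect of ERG with mAKT overlapped partly with the effect of ERG without it. The pair RWPE1-ERG and RWPE1-Vector shares no library with the pair described here. There, 4.78% of 12271 genes were at least 2-fold higher and 1.59% lower. Over the 11511 genes other than ERG at 1 FPKM or more in all 4 lines, the log2 ratios of ERG with and without mAKT had a Pearson correlation of 0.38 and a Spearman correlation of 0.17 across genes, which are not independent replicates. Of the 187 genes in this set that were at least 2-fold higher with ERG in mAKT cells, 115 were also at least 2-fold higher without mAKT, 66 were within 2-fold and 6 were lower. Of the 56 lower genes, 14 were also lower without mAKT, 36 were within 2-fold and 6 were higher. Of all 11511 genes, 409 were at least 2-fold higher and 94 lower with ERG without mAKT. With small RNA genes left out, 57 of 105 higher genes and 13 of 48 lower genes did the same without mAKT. Of all 11242 genes in that set, 258 were higher and 83 lower without mAKT.

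**Figure D4:**
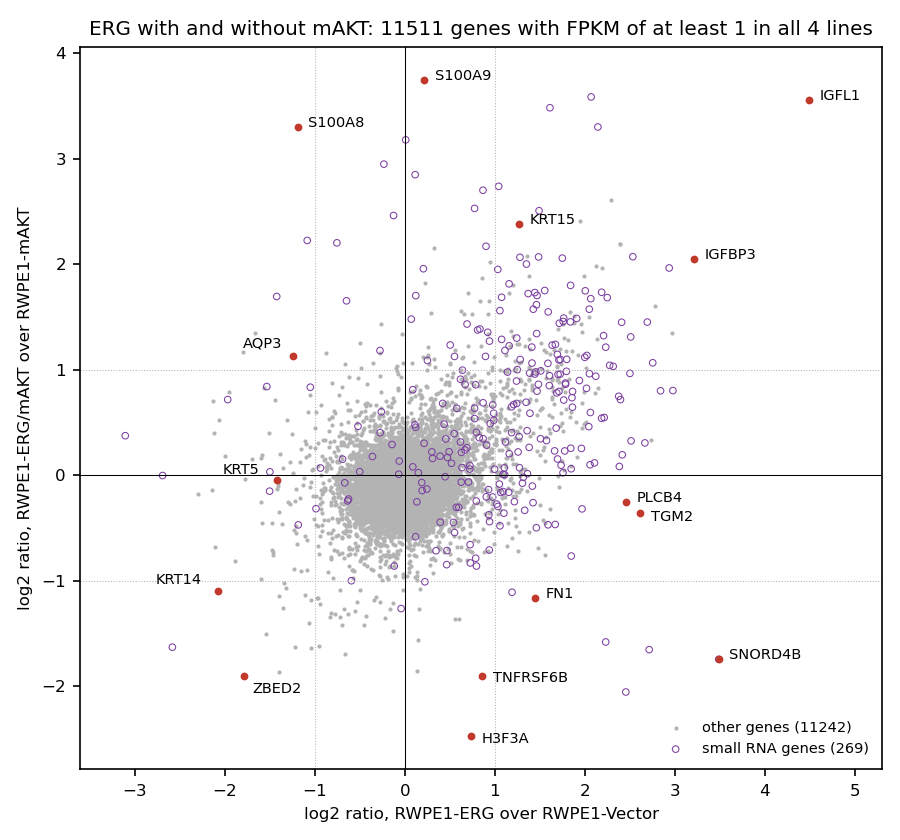
Each point is 1 of 11511 genes, with the log2 ratio of RWPE1-ERG over RWPE1-Vector on the x axis and of RWPE1-ERG/mAKT over RWPE1-mAKT on the y axis. IGFL1, IGFBP3 and KRT15 are high on both axes and ZBED2 and KRT14 low on both, while S100A8 and AQP3 (upper left) and FN1 and TNFRSF6B (lower right) lie in opposite quadrants.

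Small RNA genes aside, 4 of the 105 higher genes were at least 2-fold lower without mAKT, where 83 of all 11242 genes were. Of the 48 lower genes, 1 was at least 2-fold higher without mAKT, where 258 of all 11242 genes were. AQP3, a water and glycerol channel of basal keratinocytes, went from 28.5 to 62.3 FPKM with ERG in mAKT cells and from 11.8 to 4.97 FPKM without mAKT. S100A8, IL13RA2, a decoy receptor for IL-13 (1.52 to 3.87 FPKM with mAKT and 5.12 to 1.62 without), and LINC01133 (2.23 to 5.01 and 5.26 to 1.51 FPKM) had the same pattern, and FN1 had the reverse. The difference between the log2 ratios with and without mAKT was taken over genes with at least 5 FPKM in the highest and 0.5 FPKM in each of the 4 lines. The largest positive differences, small RNA genes left out, were those of S100A8 (4.48), ALDH3A1 (3.73), S100A9 (3.53), AKR1C2 (3.23) and IL13RA2 (3.01). The largest negative ones were those of H3F3A (-3.21), TGM2 (-2.98), TNFRSF6B (-2.76), PLCB4 (-2.71) and EPDR1 (-2.68). TGM2, a protein cross-linking enzyme, and PLCB4, a phospholipase, were at 5.36 and 4.18 FPKM and at 2.30 and 1.93 FPKM in the mAKT lines, and differed more in the other lines, from 8.73 to 53.5 and from 4.15 to 22.8 FPKM. No spread was at hand to test these differences.

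ERG ChIP-seq of RWPE1-ERG/mAKT cells gave 1 list of 9113 peaks, from 10306483 ChIP reads and 14670664 input reads, called at a p-value of 0.001. Most were weak: the median fold enrichment was 3.53, and 450 had a q-value of 0.01 or less, called the stronger peaks below. A peak lay within 20 kb of the table's span of 97 of the 324 higher genes (29.9%, 95% Wilson interval 25.2 to 35.1%), of 37 of the 115 lower genes (32.2%, 24.3 to 41.2%) and of 32.4% of all 12239 genes, so neither group differed from all genes beyond its interval. These spans differed, with medians of 13.8 kb for higher, 29.9 kb for lower and 33.0 kb for all genes. The part of span length in the shares was not tested. With the GENCODE span of each gene the shares were 26.8% of higher (21.7 to 32.6%), 37.9% of lower (29.1 to 47.5%) and 32.1% of all genes. With the 450 stronger peaks, 11 higher genes (3.40%, 1.91 to 5.98%), 12 lower genes (10.4%, 6.07 to 17.4%) and 2.41% of all genes (2.15 to 2.70%) had a peak. Several of these genes share a peak, and the intervals cover counting error only. The 12 lower genes were IGF2, NTSR1, TNFRSF6B, SLC22A18AS, XDH, LOC101926941, SLCO4A1-AS1, MT2A, TOX2, DUSP6, SLCO4A1 and SSH1. The peak of MT2A lay 1.06 kb upstream of its start and that of DUSP6 18.7 kb upstream. Among the 11 higher genes, IL24 had its peak 0.432 kb upstream of its start (chr1:207070264-207070373 on hg19, fold enrichment 5.74), and 4 were histone genes that share 1 peak. The remaining ones were ERG, NNMT, PCDH7, FCMR, CEL and SNORD85, and the peak of FCMR was the same as that of IL24. ERG is the transgene, and its peak of highest enrichment lay within the annotated gene, 278 kb downstream of its start. Whether reads of the ERG vector contribute to that peak was not tested.

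**Figure D5:**
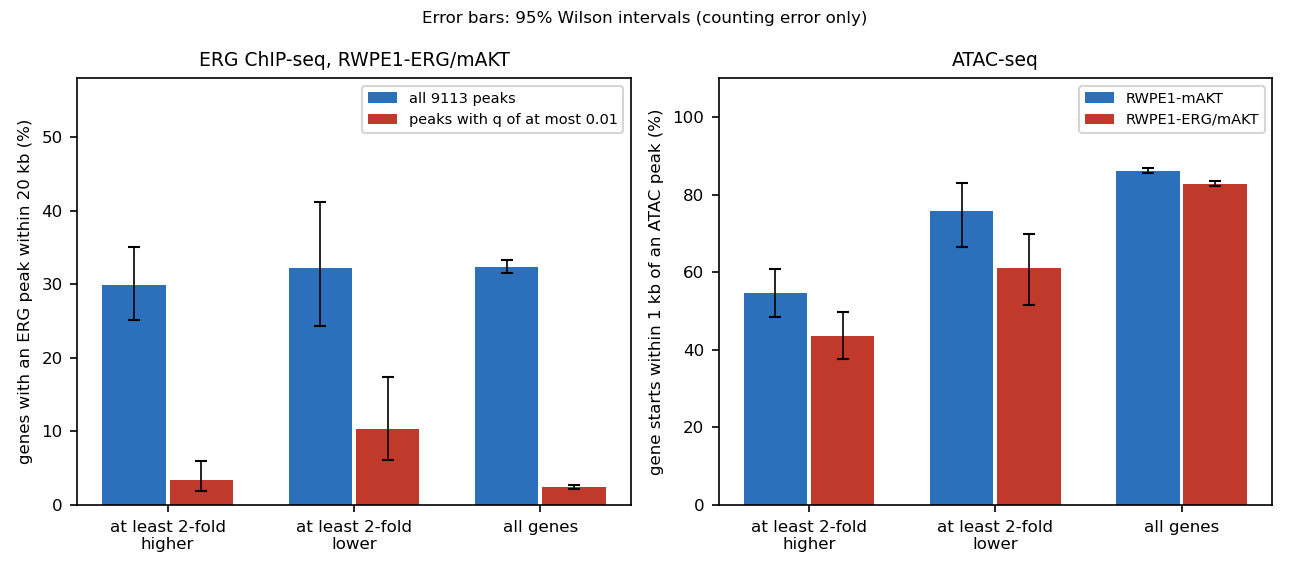
The left panel gives the percentage of genes within 20 kb of an ERG peak, for all peaks (blue) and for the stronger peaks (red), and the right panel the percentage of gene starts within 1 kb of an ATAC peak in RWPE1-mAKT (blue) and RWPE1-ERG/mAKT cells (red), with 95% Wilson intervals. With all peaks the intervals of the 3 groups overlap (29.9, 32.2 and 32.4%), and with the stronger peaks lower genes reach 10.4%.

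Of the 4 marker genes, 3 had an ERG peak within 20 kb. At S100A9 (chr1:153330330-153333499 on hg19, plus strand) a peak with a fold enrichment of 4.94 and a −log10 q-value of 1.51 had its summit 89 bases upstream of the start. The 201 bases around that summit are bases 62 to 262 of the S100A9 promoter shown above and hold 4 of its GGAA cores. At IGFL1 (chr19:46732999-46734500, plus strand) the peak lay 3.00 kb upstream, between genes, with a fold enrichment of 4.24 and a −log10 q-value of 0.686. At TNFRSF6B (chr20:62328005-62330037, plus strand) it lay 14.1 kb upstream, in an intron of RTEL1, with a fold enrichment of 6.36 and a −log10 q-value of 3.65. ZBED2 (chr3:111311747-111314193, minus strand) had no peak in that window, nor had S100A8 (chr1:153362508-153363549, minus strand). The bases within 100 of the summits at IGFL1 and TNFRSF6B are given next, from the plus strand of the GRCh37 reference, the same build as hg19, with GGAA cores of either strand in capitals.
IGFL1 peak (chr19:46729899-46730099): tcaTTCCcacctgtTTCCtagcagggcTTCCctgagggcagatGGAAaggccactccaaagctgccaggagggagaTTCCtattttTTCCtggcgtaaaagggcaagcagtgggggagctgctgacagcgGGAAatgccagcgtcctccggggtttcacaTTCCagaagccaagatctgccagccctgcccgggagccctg
TNFRSF6B peak (chr20:62313778-62313978): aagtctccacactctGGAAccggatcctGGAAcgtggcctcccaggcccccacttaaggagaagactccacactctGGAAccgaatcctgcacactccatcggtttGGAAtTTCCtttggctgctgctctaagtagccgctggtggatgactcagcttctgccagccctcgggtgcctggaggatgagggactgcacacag
The IGFL1 window held 8 cores and the TNFRSF6B window 5, where the median over all 9113 windows was 2.00 and 87.5% held at least 1. Neither held GGAAGT, which 14.9% of all windows did. Of the other large rises and falls, SNORA72, SCARNA8 and RNVU1-20 had a peak within 20 kb of the table's span, of a fold enrichment of 3.53, 4.24 and 4.70. That span is wider than the gene, and the peaks of SCARNA8 and RNVU1-20 lay 39.4 and 28.2 kb from the annotated starts.

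Open chromatin at gene starts was read from 1 ATAC-seq library of each line. The list of RWPE1-mAKT cells held 57999 peaks over 35.1 Mb and that of RWPE1-ERG/mAKT cells 42081 peaks over 23.7 Mb, and the part of this difference in size in the shares below was not tested. Of the 250 higher genes with a start in the annotation, 54.8% (48.6 to 60.9%) had a peak within 1 kb of it in RWPE1-mAKT and 43.6% (37.6 to 49.8%) in RWPE1-ERG/mAKT cells. For the 103 lower genes the shares were 75.7% (66.6 to 83.0%) and 61.2% (51.5 to 70.0%), and for all 11030 genes 86.2% and 82.9%. Both changed groups had fewer starts in open chromatin than all genes in both lines, also among protein-coding genes alone, where the shares in RWPE1-ERG/mAKT cells were 56.5% of 170 higher, 60.5% of 86 lower and 84.7% of 10427 genes. The start of S100A9 had a peak in both lines, that of S100A8 in RWPE1-mAKT only, and those of IGFL1 and SPRR2A in neither. KRT14, lower with ERG, had a peak at its start in RWPE1-mAKT cells only.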

How the data were processed

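RNA-seq was analysed for 4 RWPE1 lines with 3 libraries each. The authors aligned reads to hg19 with TopHat2 and deposited a Cuffdiff table with 1 FPKM value per gene and line, pooled over the 3 libraries, for 6 pairs of lines. Its columns of fold change, test statistic, p-value, q-value and significance hold the authors' own comparisons and were not used. Depth per library is unknown from FPKM. Versions of TopHat2 and Cuffdiff are not given in the sources used here.

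Log2 ratios were formed from the FPKM without a pseudocount for genes with at least 1 FPKM in either line, and a gene was called higher or lower at 2-fold or more. As values are pooled, no test was run. The members, the 28 gene lists and the rules were chosen with earlier results of these data known. Named were both transgenes, the 4 markers, the 10 largest rises and falls (at least 5 FPKM in the higher line, 0.5 in the lower), the 5 largest gains and losses in FPKM among genes past 2-fold, the 5 largest differences between the ERG effects in each direction, up to 4 genes per list with at least 5 FPKM and a set of keratin and fate genes. The 15 largest rises and falls without small RNA genes, further members of lists and the genes near stronger ERG peaks were added after the values were seen.

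The authors called ERG peaks with MACS 2.1.2 against input, on 1 library made from the pooled DNA of 3 ChIP experiments, and deposited a fold enrichment (a ratio over local background) and a −log10 q-value for each. ATAC peaks were broad MACS2 calls, 1 library per line. Peaks were assigned to the gene spans of the table within 20 kb, and gene starts came from GENCODE release 44 on GRCh37, which matched 90.1% of genes with a ratio. Shares have 95% Wilson intervals. The code was tested on simulated data. Software was pandas 2.3.3, numpy 2.4.6 and matplotlib 3.10.9 on Python 3.11.15.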

Additional observations from a re-analysis of the deposited data

How the results depend on the processing

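The values are pooled over libraries, so leaving out libraries was not run, and no error can be put on any ratio. No paired analysis was possible because the table holds no values of single libraries. The count of 324 higher and 115 lower genes depended most on the limits set: a floor of 5 FPKM gave 189 and 49, a floor of 0.1 FPKM 798 and 330, a 1.5-fold limit 704 and 401, and a 4-fold limit 64 and 13. Leaving out small RNA and clustered histone genes, chosen after the data were seen, gave 201 and 103. A pseudocount of 1 FPKM, centring on the median and keeping genes of status OK left both counts within 1.5 times. The correlation of the ERG effects was 0.26 with a pseudocount of 1 FPKM and genes at 1 FPKM in any line. An ERG peak was near 21.3% of higher and 23.4% of all genes at 5 kb, and near 3.40% of higher, 10.4% of lower and 2.41% of all genes with stronger peaks. At 4-fold, 6 of the 13 lower genes (46.2%, 95% Wilson interval 23.2 to 70.9%) and 28.1% of the 64 higher genes had a peak. The share of all genes, 32.4%, lay inside the interval of the lower genes. With a pseudocount of 1 FPKM, 4 of the 72 genes past 2-fold that the naming rule and its extension chose came within 2-fold (IFIT2, IL13RA2, IL1RN and SERPINB2), but 23 of the 66 list members past 2-fold did, most of them low genes, among them KRTDAP, SBSN, KLK7, OVOL1, CGN, ETV1, SMAD7, DLL1, LFNG, EGLN3 and HMOX1. Centring turned 4 of 28 list medians from just below 0 to just above 0, those of the FOXO (0.03), glycolysis (0.02), endothelial (0.02) and AP-1 (0.08) lists.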
